A study of Mus musculus with 25 samples.

Results

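A set of 10 genes of the choroid plexus, the folded epithelium that hangs in the brain ventricles and secretes cerebrospinal fluid, were followed in ageing mouse brain: Ttr, Folr1, Kl, Clic6, Kcnj13, Sostdc1, Prlr, Otx2, Aqp1 and Trpv4. They were chosen by symbol, with earlier results of these data known, and all 10 were found by Ensembl identifier among the 47729 genes of the count table. All 10 passed the filter on low counts, which left 17799 genes. Total RNA came from the brain (labelled hemisphere) of male C57BL/6 mice, an inbred strain, with 5 samples each at 2, 9, 15, 24 and 30 months of age (25 in all). No treatment or modified allele is named for any group. The labels do not say whether each sample is a separate mouse, so p-values measure the spread between these samples. Library totals ran from 17800113 to 31261121 counts. The labels do not say how much of the ventricles, and so of the choroid plexus, each dissected hemisphere held. In such bulk tissue fewer choroid plexus cells and less RNA per choroid plexus cell cannot be told apart.

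As background, choroid plexus epithelial cells are joined by tight junctions and form the barrier between blood and cerebrospinal fluid. They move salts, bicarbonate and water into the ventricles, carry hormones and vitamins across, and release carrier proteins into the fluid. Klotho, the product of Kl, is a membrane protein that serves as co-receptor of the hormone FGF23 and that is also shed as a soluble form. In the body it is made mainly in the kidney, and in the brain the choroid plexus is its strongest source. Mice that lack klotho show features of early ageing, which is why its level in old brain is of interest.

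The members differ in role. Transthyretin (Ttr) carries thyroxine and retinol-binding protein, and Folr1 is the folate receptor that passes folate into the cerebrospinal fluid. Prlr is the prolactin receptor. Clic6 is a chloride channel protein, Kcnj13 an inward rectifier potassium channel, Aqp1 the water channel of the apical membrane and Trpv4 a calcium-permeable channel opened by osmotic and mechanical stimuli. Sostdc1 is a secreted antagonist of BMP and Wnt signals, and Otx2 is a homeodomain transcription factor needed for choroid plexus development and upkeep.

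Promoter sequence is shown for Kl, for Otx2, for Kcnj13, whose level was correlated with that of Kl, and for Aqp1, whose level was not detectably so. Each is the run of 250 bases before the transcription start in RefSeq (GRCm38.p6): Kl at chr5:150952357-150952606 (plus strand), Otx2 at chr14:48665110-48665359 (minus), Kcnj13 at chr1:87394730-87394979 (minus) and Aqp1 at chr6:55336049-55336298 (plus). Capitals mark the core motif of OTX2, TAATCC, read here on the other strand as GGATTA.
Kl: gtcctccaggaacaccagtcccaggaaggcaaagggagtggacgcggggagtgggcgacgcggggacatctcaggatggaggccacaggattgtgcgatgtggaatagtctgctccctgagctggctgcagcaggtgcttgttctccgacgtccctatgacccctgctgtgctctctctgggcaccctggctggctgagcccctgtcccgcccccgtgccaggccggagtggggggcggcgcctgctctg
Otx2: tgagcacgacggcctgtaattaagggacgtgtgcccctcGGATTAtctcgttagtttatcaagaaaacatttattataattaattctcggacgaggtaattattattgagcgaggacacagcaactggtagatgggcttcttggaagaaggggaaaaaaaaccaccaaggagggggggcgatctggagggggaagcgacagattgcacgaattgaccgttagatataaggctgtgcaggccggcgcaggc
Kcnj13: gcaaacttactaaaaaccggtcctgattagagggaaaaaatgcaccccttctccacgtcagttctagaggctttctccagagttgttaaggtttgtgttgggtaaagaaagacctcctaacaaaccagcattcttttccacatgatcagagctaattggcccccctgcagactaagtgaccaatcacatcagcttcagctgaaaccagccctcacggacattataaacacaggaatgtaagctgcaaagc
Aqp1: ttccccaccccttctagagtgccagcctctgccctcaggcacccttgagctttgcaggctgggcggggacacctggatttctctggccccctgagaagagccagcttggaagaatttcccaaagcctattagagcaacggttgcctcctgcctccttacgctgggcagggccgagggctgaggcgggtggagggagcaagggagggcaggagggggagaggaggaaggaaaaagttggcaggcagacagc
The table of promoters held 11 entries for 6 of the members (Kl, Kcnj13, Prlr, Otx2, Aqp1 and Trpv4), each with 250 bases before and 50 after a start. TAATCC was searched on both strands and occurred in 1 of the 11, the Otx2 start shown, beginning at position -211 from that start. Of 32851 promoters of 300 bases in the same table, 7.06% held it. A match describes the letters only.

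Kl (ENSMUSG00000058488) lies at chr5:150952607-150993817 of the GRCm38 build, on the plus strand, and Trpv4 (ENSMUSG00000014158) at chr5:114622152-114658421 on the minus strand. The carriers and receptors are Ttr (ENSMUSG00000061808, chr18:20665280-20674321), Folr1 (ENSMUSG00000001827, chr7:101858331-101870788) and Prlr (ENSMUSG00000005268, chr15:10177238-10349180). The other channels are Clic6 (ENSMUSG00000022949, chr16:92485736-92541243), Kcnj13 (ENSMUSG00000079436, chr1:87386363-87394729) and Aqp1 (ENSMUSG00000004655, chr6:55336432-55348555). Sostdc1 (ENSMUSG00000036169) lies at chr12:36314139-36318452 and Otx2 (ENSMUSG00000021848) at chr14:48657677-48673819. Folr1, Kcnj13 and Otx2 overlap a gene on the opposite strand (Anapc15, Gigyf2 and Otx2os1), and Clic6, Prlr and Otx2 overlap one on their own strand (2410124H12Rik, Gm21973 and Gm49154). The strand setting of the counting is not given in the sources used here, so reads from such overlaps cannot be told apart.

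The libraries did not all represent this tissue alike, and 5 of the 25 are set apart in what follows. In 9 months replicate 1, 9 of the 10 genes were below their lowest value in the other 24 libraries. The 4 libraries of 30 months replicates 2 to 5 leaned toward transcripts of high GC content: their median log2 level of the protein-coding genes in the top 10% of GC content exceeded that of the bottom 10% by 1.08 to 1.97, relative to the median over the libraries that do not stand apart. The same gap was 0.12 in 30 months replicate 1 and between -0.24 and 0.13 at the younger ages. Results are therefore given over all 25 libraries, without 9 months replicate 1 (24 libraries) and without all 5 (20 libraries, which leave 1 library of 30 months).

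Levels are CPM, a gene's counts per 1000000 counts of its library, after scaling by the trimmed mean of M values (TMM). Ttr dominated the group at a mean of 503 CPM, and the others lay between 2.80 CPM (Kcnj13) and 27.8 CPM (Kl). Per kilobase of exon sequence, Ttr stood at 424 CPM, followed by Clic6 at 5.47, Kl at 2.98, Sostdc1 at 2.51, Kcnj13 at 2.20, Aqp1 at 2.16, Folr1 at 2.01, Otx2 at 1.55, Prlr at 1.18 and Trpv4 at 1.08. Over the 20 libraries the coefficient of variation ran from 10.6% for Kl and 11.02% for Otx2 to 17.0% for Sostdc1. Kl was thus among the steadiest of these transcripts from library to library.

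**Figure D1:**
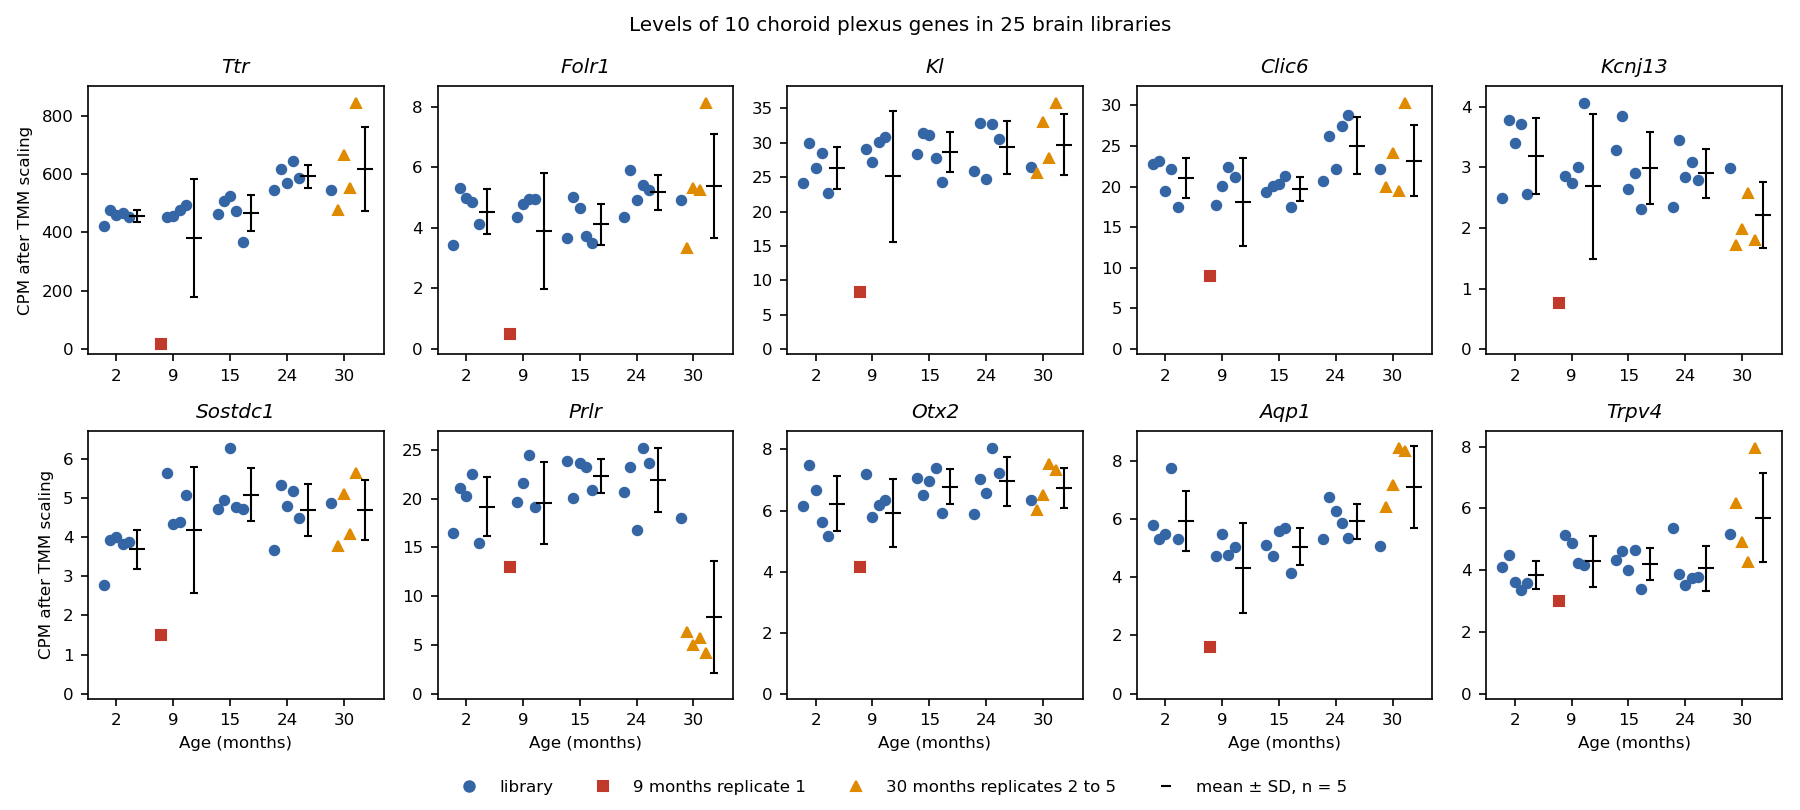
Level of each of the 10 genes (vertical axes, CPM after TMM scaling) in the 25 libraries by age in months, with 1 symbol per library and the mean ± SD over the 5 libraries of an age as a black bar. The red square, 9 months replicate 1, lies near 0 for Ttr and Folr1, and the orange triangles, 30 months replicates 2 to 5, lie between 4.13 and 6.36 CPM for Prlr where all other libraries exceed 13 CPM.

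Klotho RNA did not differ detectably between any age and 2 months over all 25 libraries. Kl was at 24.1, 29.9, 26.3, 28.6 and 22.7 CPM in the 5 libraries of 2 months and at 8.29, 29.0, 27.3, 30.2 and 30.8 CPM at 9 months. It was at 28.4, 31.5, 31.1, 27.8 and 24.4 CPM at 15 months, at 25.8, 32.9, 24.7, 32.8 and 30.5 CPM at 24 months, and at 26.5, 25.5, 33.0, 27.8 and 35.7 CPM at 30 months. Apart from the low library of 9 months, every age overlapped every other. Means were 26.3 ± 3.02 CPM (SD, n = 5) at 2 months, 28.6 ± 2.88 at 15, 29.3 ± 3.87 at 24 and 29.7 ± 4.44 at 30 months. At 9 months the mean was 25.1 ± 9.50 CPM, and 29.3 ± 1.56 (SD, n = 4) without replicate 1. No neighbours in this order differed by more than their spread.

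The log2 fold change of Kl against 2 months was -0.07 (SE 0.21) at 9 months, 0.12 (SE 0.21) at 15, 0.16 (SE 0.20) at 24 and 0.18 (SE 0.20) at 30 months. The adjusted p of edgeR's quasi-likelihood test was 0.945, 0.896, 0.757 and 0.478 in turn. Removing 9 months replicate 1 narrowed the errors: with the 24 other libraries the change at 24 months was 0.15 with a 95% interval from -0.05 to 0.36, and at 30 months 0.16 with an interval from -0.05 to 0.37. On the linear scale the second interval runs from 0.969 to 1.30 times the level at 2 months. The difference of 9 and 2 months turned positive, at 0.16 (interval -0.06 to 0.38). Kl passed for 30 with 2 months, upward, in 2 alternatives. With the GC offset and without 9 months replicate 1 its change was 0.29 (adjusted p = 0.0357, against 45.7% of all genes). With a choroid plexus covariate over all 25 libraries it was 0.27 (adjusted p = 0.00146, against 57.6%). That covariate, described below, was 0.44 in 9 months replicate 1 and 1.55 or more in every other library. How far that library set the result was not tested. Over the 20 libraries the change of Kl at 30 months was -0.05 with this covariate and 0.01 (SE 0.16) without it.

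Of the 10 genes, none passed the test at 9, 15 or 24 months against 2 months over all 25 libraries, where 2.38%, 1.26% and 5.23% of all genes tested did (for 24 months 3.38% upward and 1.85% downward; edgeR, Benjamini-Hochberg adjusted p at 0.05). At an unadjusted p of 0.05 the counts were 1, 1 and 0, and DESeq2 and limma-voom also called 0 in each. Of the 10, 2 passed for 30 with 2 months, Trpv4 upward and Prlr downward, against 58% of all genes (28.5% upward and 29.5% downward). The same 2 passed for 30 with 24 months, against 54.5% of all genes. The F test over the 5 ages called 3 (Prlr, Trpv4 and Aqp1), against 68.1% of genes, and the linear trend called 1 (Trpv4), against 47%. Each of these shares is below that of all genes, but with 10 genes such counts are not read as a result about the group. Without 9 months replicate 1, 5 of the 10 passed for 30 with 2 months, against 57.2% of all genes. Over all 25 libraries the median log2 fold change of the 10 against 2 months was -0.15, 0.08, 0.17 and 0.21 at 9, 15, 24 and 30 months. Over all genes it was -0.01, -0.01, 0.00 and 0.01. In the 20 libraries, which hold 1 library of 30 months, the median of the 10 was 0.06, 0.08, 0.17 and 0.04.

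Prolactin receptor RNA was lower at 30 months in 4 of 5 libraries. Prlr was at 16.5, 21.1, 20.3, 22.6 and 15.5 CPM at 2 months, and its mean was 22.3 ± 1.74 CPM (SD, n = 5) at 15 months and 21.9 ± 3.31 at 24 months. At 30 months it was at 18.01 CPM in replicate 1 and at 6.36, 5.04, 5.74 and 4.13 CPM in replicates 2 to 5. The first of these lay within the range of the younger ages, and the other 4 lay below every library of the other ages. Over all 25 libraries Prlr fell by 1.28 on the log2 scale against 2 months (SE 0.26, adjusted p = 0.000235) and by 1.47 against 24 months (adjusted p = 9.7e-05). Over the 20 libraries, where replicate 1 alone stands for 30 months, the difference from 2 months was -0.10 (SE 0.21, adjusted p = 0.847).

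The osmosensing channel Trpv4 moved the other way. It was at 4.10, 4.49, 3.63, 3.37 and 3.58 CPM at 2 months and at 5.18, 6.17, 4.92, 4.27 and 7.97 CPM at 30 months. Replicate 4 of 30 months overlapped the young range and the other 4 lay above it. Trpv4 rose by 0.57 (log2, SE 0.16, adjusted p = 0.00395) against 2 months and by 0.48 (adjusted p = 0.0111) against 24 months over all 25 libraries. The difference from 24 months was 0.33 and no longer passed without 30 months replicate 5, and the linear trend over ages (0.0151 per month, adjusted p = 0.0242) did not pass without 30 months replicate 2 or replicate 5. The change against 2 months over the 20 libraries was 0.43 (SE 0.20, adjusted p = 0.193).

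Base composition moved with both calls. Of the 10 genes Prlr had the lowest GC content in its longest transcript (39.4%) and Trpv4 the highest (59.0%). When each library's levels were first adjusted for GC content, the log2 change of Prlr at 30 months was -0.56 (adjusted p = 0.011) and that of Trpv4 was 0.26 (adjusted p = 0.157). That setting called 45.8% of all genes for 30 with 2 months. It called 3 of the 10, Prlr downward and Otx2 and Sostdc1 upward, and the share that GC content has in the calls was not tested further.

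**Figure D2:**
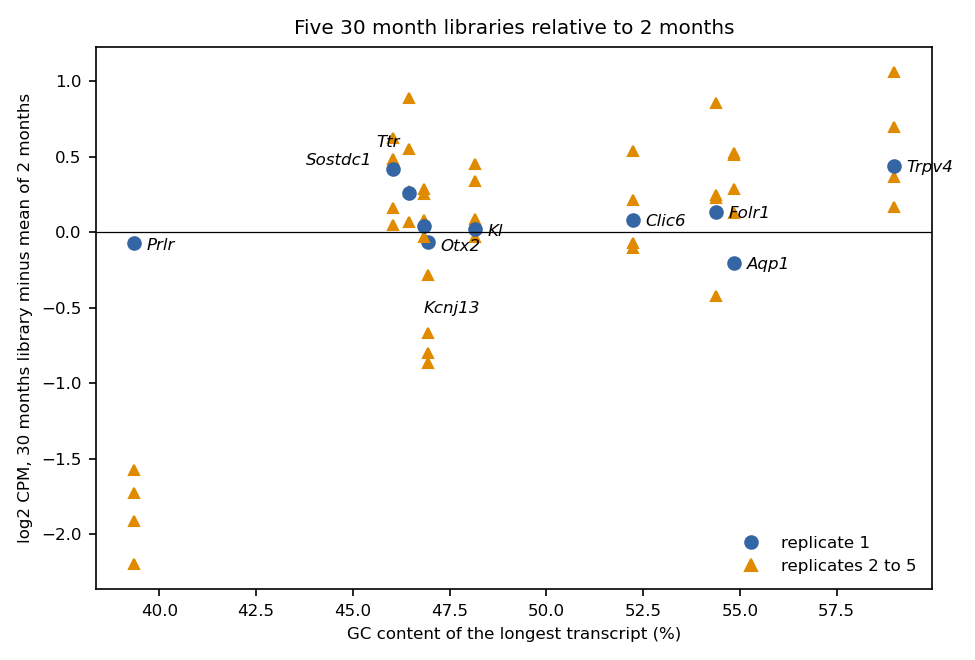
Log2 CPM of each gene in the 5 libraries of 30 months minus its mean log2 CPM at 2 months (vertical axis), against the GC content of its longest transcript in percent (horizontal axis). Replicate 1 (blue points) lies near 0 for Prlr, while replicates 2 to 5 (orange triangles) lie far below 0 for Prlr, at 39.4% GC, and all above 0 for Trpv4, at 59.0% GC.

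Aqp1, the water channel, was the third gene called by the F test (adjusted p = 0.0313). It was at 5.81, 5.31, 5.49, 7.76 and 5.32 CPM at 2 months and at 5.09, 6.41, 7.17, 8.45 and 8.35 CPM at 30 months, so the ages overlapped. Its lowest value of all was 1.60 CPM, in 9 months replicate 1. Its log2 change was -0.46 (adjusted p = 0.304) at 9 months and 0.26 (adjusted p = 0.272) at 30 months. Over the 20 libraries the change at 30 months turned to -0.22 (adjusted p = 0.543). The F test called Aqp1 without 9 months replicate 1 too (adjusted p = 0.0133). It did not call it without 30 months replicate 3, 4 or 5, with no filter (adjusted p = 0.0795), with the GC offset (adjusted p = 0.144) or over the 20 libraries (adjusted p = 0.156).

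Transthyretin RNA had a higher mean at 24 than at 2 months. The difference passed the test only in fits without 9 months replicate 1, and not in all of those. Ttr was at 423, 477, 460, 467 and 454 CPM at 2 months and at 546, 618, 570, 645 and 585 CPM at 24 months, so the 2 groups did not overlap. At 30 months it was at 544, 478, 667, 551 and 843 CPM, also above every library of 2 months, though by only 1 CPM at its lowest. At 15 months it was at 462, 507, 525, 473 and 368 CPM, and at 9 months at 17.9, 454, 457, 478 and 494 CPM, both of which overlap 2 months. Ttr was the only one of the 10 without overlap at 24 months, where 7.01% of all genes lay wholly above 2 months, and at 30 months, where 11.4% did.

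Over all 25 libraries the log2 fold change of Ttr was 0.38 at 24 months (SE 0.40, adjusted p = 0.678) and 0.43 at 30 months (SE 0.40, adjusted p = 0.362). The 1 library of 9 months at 17.9 CPM widened the spread that all ages share. Without it the same changes were 0.38 (SE 0.11, adjusted p = 0.0416) and 0.42 (SE 0.11, adjusted p = 0.00191), and 5.03% and 57.2% of all genes passed. With the 20 libraries Ttr rose by 0.38 at 24 months (95% interval 0.22 to 0.54, adjusted p = 0.00198), which is 1.30 times the level of 2 months. In that fit 21.1% of all genes passed for 24 with 2 months. The F test over ages called Ttr and Sostdc1 there, 2 of the 10, against 41.5% of genes. At 30 months the change of Ttr in that fit was 0.25, from 1 library of that age, too few for a count of genes that pass.

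Transthyretin is also made in liver, and liver transcripts moved with age in these libraries. Alb, serum albumin, was at 38.5 to 171 CPM in the 5 libraries of 24 months and at 0, 0.782, 2.71, 5.62 and 128 CPM in those of 2 months. The summed level of 11 liver markers had a median of 5.17 CPM (range 1.12 to 199) at 2 months, 221.5 CPM (59.2 to 263) at 24 months and 1.63 CPM (1.33 to 191) at 30 months. With the log liver level as a covariate in the fit of 20 libraries, Ttr rose by 0.35 at 24 months (adjusted p = 0.0476), and 10.8% of all genes passed. None of the 11 liver markers passed for 24 with 2 months in edgeR's test over 25 libraries, and 6 had an unadjusted p under 0.05. In 4 libraries of 30 months Alb was between 0.0478 and 0.2995 CPM, and Ttr there was between 478 and 843 CPM. Of these, replicates 2, 4 and 5 lean toward high GC content, and Ttr was at 544 CPM in replicate 1, which does not. The part of liver RNA in the Ttr result was not tested beyond the covariate. Ependymal markers summed to a median of 28.03 CPM (23.5 to 31.6) at 24 months and 22.9 CPM (19.2 to 28.3) at 2 months, and their part in the result was not tested.

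**Figure D3:**
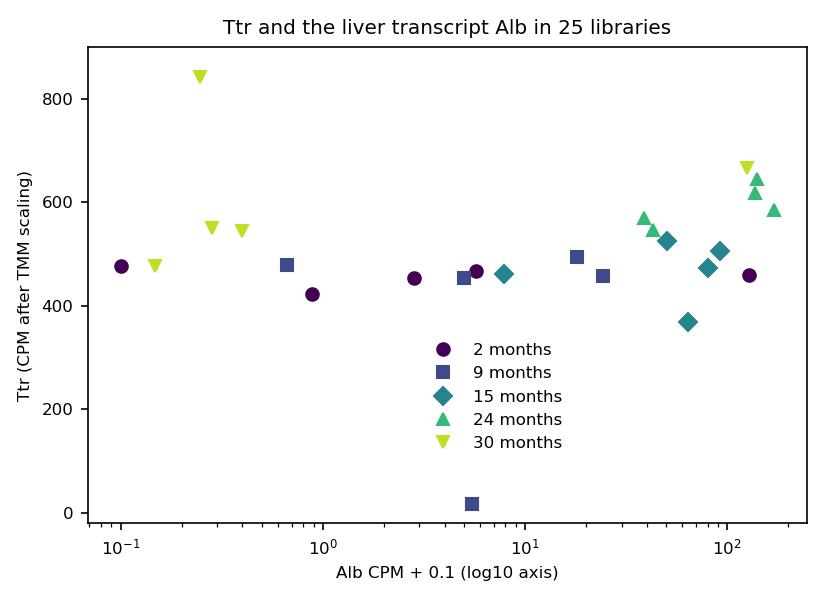
Ttr (vertical axis, CPM) against the liver transcript Alb (horizontal axis, CPM plus 0.1 on a log10 scale) in the 25 libraries, with 1 symbol and colour per age. The 5 libraries of 24 months lie at 546 to 645 CPM of Ttr and 38.5 to 171 CPM of Alb, and 4 libraries of 30 months lie at 478 to 843 CPM of Ttr with Alb near 0. Of these 4, replicates 2, 4 and 5 lean toward high GC content.

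Sostdc1, the BMP and Wnt antagonist, had its lowest mean at 2 months. It was at 2.78, 3.93, 4.01, 3.82 and 3.89 CPM at 2 months and at 4.72, 4.94, 6.29, 4.78 and 4.71 CPM at 15 months, with no overlap between the 2 ages. It was the only one of the 10 to lie wholly above 2 months at 15 months, where 4.55% of all genes did. At 24 months it was at 3.67, 5.34, 4.81, 5.18 and 4.497 CPM, and 1 of these libraries fell within the young range. Over all 25 libraries its log2 changes were 0.17, 0.46 and 0.34 at 9, 15 and 24 months, with adjusted p of 0.830, 0.373 and 0.405. Without 9 months replicate 1 alone (24 libraries), Sostdc1 changed by 0.40, 0.47 and 0.34, and none of these passed (adjusted p = 0.197, 0.09 and 0.147). In the 20 libraries it rose by 0.40, 0.47 and 0.34, with adjusted p of 0.0378, 0.00871 and 0.0382, and 10.9%, 12% and 21.1% of all genes passed in the same comparisons. With the liver covariate added to that fit, its changes at 15 and 24 months no longer passed, and the one at 9 months did (0.39, adjusted p = 0.0381), against 11.4% of all genes.

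The other 4 genes gave no call in the fits of all 25 or of the 20 libraries that had TMM scaling and no offset or covariate. Some alternatives called them: the GC offset called Otx2, total counts called Clic6, and the choroid plexus covariate over all 25 libraries called Folr1, Kcnj13 and Clic6. Folr1, the folate receptor, was at 4.54 ± 0.76 CPM (SD, n = 5) at 2 months and 5.17 ± 0.57 at 24 months, a log2 change of 0.18 (adjusted p = 0.816). Clic6 was at 21.01 ± 2.47 and 25.1 ± 3.50 CPM, a change of 0.25 (adjusted p = 0.428). Otx2, the transcription factor, was at 6.23 ± 0.91 and 6.95 ± 0.80 CPM, a change of 0.15 (adjusted p = 0.544). Kcnj13 was at 3.19 ± 0.62 CPM at 2 months and 2.21 ± 0.55 at 30 months, a change of -0.52 (adjusted p = 0.0872), and over the 20 libraries the change was -0.10 (adjusted p = 0.874). Without 9 months replicate 1, 5 of the 10 passed for 30 with 2 months, namely Ttr, Sostdc1 and Trpv4 upward and Prlr and Kcnj13 downward, against 57.2% of all genes.

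One library of 9 months lacked most choroid plexus transcript. Against the mean of the other 4 libraries of its age, 9 months replicate 1 was 26.3-fold lower in Ttr (493 counts), 9.35-fold lower in Folr1 (14 counts) and 4.15-fold lower in Kcnj13 (21 counts). It was 3.54-fold lower in Kl, 3.26-fold in Sostdc1, 3.13-fold in Aqp1 and 2.26-fold in Clic6. Prlr, Otx2 and Trpv4 were only 1.63-fold, 1.54-fold and 1.53-fold lower. The 10 genes thus kept between 3.81% and 65.5% of their usual level in 1 and the same library. Prlr was the 1 gene not below all 24 other libraries, because 4 libraries of 30 months were lower still.

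Other choroid plexus genes were low in the same library. Steap1 had 1 count there. The membrane protein Mfrp was 23.9-fold lower (7 counts), the potassium channel subunit Kcne2 22.2-fold (4 counts) and Tmem72 17.1-fold. The bicarbonate transporter Slc4a5 was 14.5-fold lower, coagulation factor F5 8.61-fold and the tight junction protein Cldn2 6.94-fold. Of 14898 genes with a mean of at least 1 CPM, 423 lay below all other 24 libraries there and 14 did so by more than 1 log2 unit. Those 14 comprised 4 of the 10 genes (Ttr, Folr1, Kl and Aqp1), 8 others listed as choroid plexus epithelial genes, 1500015O10Rik among them, and 2 more, Prr32 and Drc7. The 10 genes and the list were chosen with earlier results of these data known, so this overlap is not independent evidence.

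Markers of neighbouring tissue were not low there. The summed level of 8 ependymal markers was 26.7 CPM in that library, the highest of 9 months (21.4 to 26.7). Haemoglobin Hbb-bs was at 116 CPM, above the 18.6 to 89.4 CPM of the other 24 libraries. The astrocyte water channel Aqp4 was at 178 CPM, beside 145 to 176 CPM in the rest of its age. What part blood or ependyma has in the low values was not tested.

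**Figure D4:**
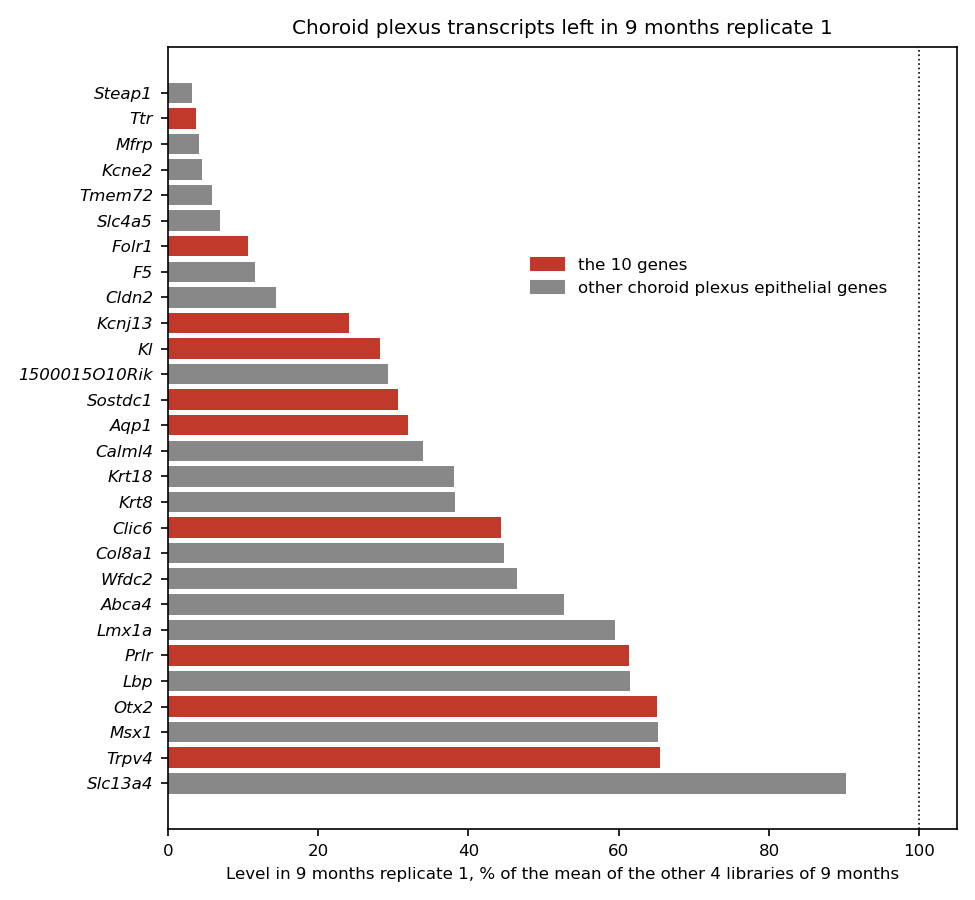
Level in 9 months replicate 1 as a percent of the mean of the other 4 libraries of 9 months (horizontal axis), for the 10 genes (red bars) and 18 other choroid plexus epithelial genes (grey bars) that passed the filter. Red bars run from 3.81% (Ttr) to 65.5% (Trpv4), the lowest grey bar, Steap1, rests on 1 count, and the highest is at 90.2% (Slc13a4), and the dotted line marks 100%.

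Kidney, pituitary and retinal pigment epithelium share some of these genes, and their markers were mixed. Of 7 kidney markers Umod, of kidney tubules, had at most 2 counts in any library, while Slc22a6, an organic anion transporter, had a median of 8.85 CPM. Of 5 pituitary markers prolactin (Prl) had at most 13 counts, while Gh, Pomc and Tshb reached 122, 84 and 75. Of 5 markers of retinal pigment epithelium Rgr had at most 1 count, while Rlbp1 and Rpe65 had medians of 15.1 and 1.80 CPM. The summed level per library was 8.38 to 12.4 CPM for kidney, 1.60 to 13.3 for pituitary and 14.3 to 23.1 for retinal pigment epithelium, and the part of these tissues in the results was not tested. The choroid plexus markers that are no members (Kcne2, Tmem72, Slc4a5 and Cldn2) had medians of 3.06, 6.59, 5.29 and 4.04 CPM. With the 10 genes added, these markers summed to 61.2 CPM in 9 months replicate 1 and to between 469.5 and 968 CPM in the other 24 libraries.

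Kl and most of the other genes were correlated from library to library, though whether the calls rest on the outermost libraries could not be told. Over the 20 libraries, Kl was correlated with 7 of the 9 others at an adjusted p under the threshold (100000 permutations, two-sided, Benjamini-Hochberg over 9 relations, n = 20). Pearson's r was 0.73 with Prlr (adjusted permutation p = 0.00261), 0.64 with Folr1 (0.00696), 0.64 with Otx2 (0.00696) and 0.60 with Kcnj13 (0.0127). It was 0.57 with Sostdc1, 0.54 with Ttr and 0.54 with Clic6, with adjusted permutation p of 0.0134, 0.0187 and 0.0187. Spearman's rho was 0.61, 0.69, 0.56, 0.62, 0.64, 0.58 and 0.43 for these 7 in the same order, with adjusted permutation p from 0.00819 to 0.0181 for all but Clic6 (0.0759). Aqp1 (r = 0.12, rho = 0.04) and Trpv4 (r = 0.12, rho = 0.10) gave adjusted permutation p of 0.616 for r, and 0.861 and 0.766 for rho. The share of all genes that would pass the same test with Kl was not computed. The count of 7 of 9 is therefore not a result about choroid plexus genes in particular. Among non-members, Harbi1 and Hspb11 had a rho with Kl of 0.77 and 0.73.

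Leaving out the 2 libraries farthest from the median of the other gene gave r of 0.56 for Prlr, 0.50 for Folr1, 0.44 for Otx2, 0.54 for Kcnj13, 0.46 for Sostdc1, 0.37 for Ttr and 0.43 for Clic6. None of these passed (adjusted permutation p from 0.0996 to 0.168, and unadjusted 0.0164 for Prlr, 0.0221 for Kcnj13 and 0.0342 for Folr1). The 2 libraries were chosen anew for each gene. Dropping the outermost values narrows the range and lowers n, which lowers r for a true relation too. Whether the calls rest on those libraries therefore cannot be told from this. As deviations from the mean of each age the relations were r = 0.77 for Ttr and 0.78 for Folr1, and 7 of 9 again passed, of which 4 (Ttr, Folr1, Clic6 and Kcnj13) also passed without the 2 farthest libraries. With the 4 GC-leaning libraries of 30 months added (24 libraries), 5 of 9 passed, and r with Prlr was -0.14 (rho = 0.24) and with Kcnj13 0.15. Over all 45 pairs of the 10 genes rho ranged from -0.38 to 0.70 with a median of 0.29, and 38 pairs were above 0. The share of pairs above 0 among all genes was not computed.

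**Figure D5:**
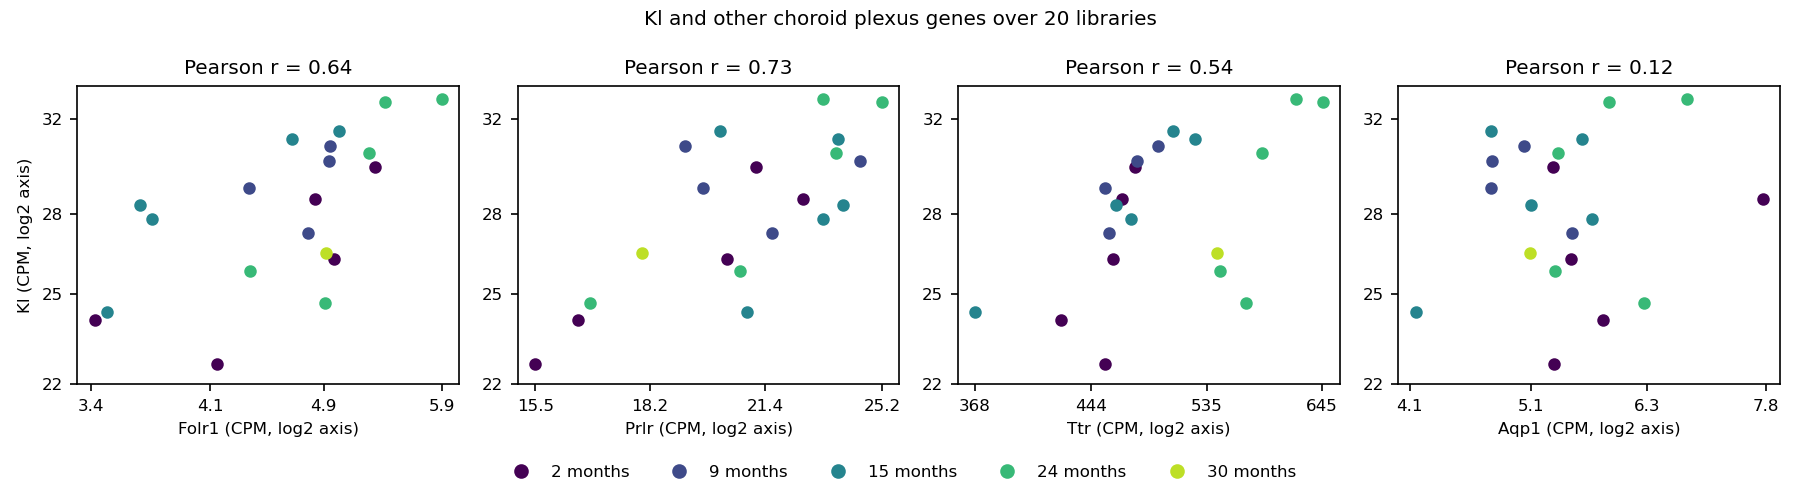
Kl (vertical axis) against Folr1, Prlr, Ttr and Aqp1 (horizontal axes), all in CPM on log2 axes, over the 20 libraries, coloured by age. Kl went up with the first 3 (Pearson r 0.64, 0.73 and 0.54) and not detectably with Aqp1 (r = 0.12).

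Since libraries differed in how much choroid plexus RNA they held, the ages were also compared with the mean log2 level of the other listed choroid plexus epithelial genes as a covariate. Over the 20 libraries this gave a log2 change of 0.19 for Kl at 9 months (adjusted p = 0.0087), -0.04 at 24 months (adjusted p = 0.676) and -0.05 at 30 months (adjusted p = 0.77). The F test over ages then gave an adjusted p of 0.00239 for Kl, against 37.8% of all genes. Ttr rose by 0.26 at 24 months in this fit (adjusted p = 0.00564), against 17.7% of all genes, while over all 25 libraries the same covariate gave a change of -0.06 (adjusted p = 0.890). The 9 month change of Kl is read against the 11.1% of all genes that passed in that comparison.

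The genes most like the group were sought among non-members with a mean of at least 1 CPM, by Spearman's rho over the 20 libraries with the mean standardised level of the 10. Enpp2, the secreted enzyme autotaxin, came first (rho = 0.81), then Slc4a5 (0.78), F5 (0.75), D030068K23Rik (0.74), Tmem72 (0.72), Il10rb (0.72) and Zic4 (0.71). Wnt9b, Yju2 and Harbi1 followed at 0.68 each. For Kl alone the order was Enpp2 (0.83), Harbi1 (0.77), F5 (0.74), Sulf1 (0.73) and Hspb11 (0.73). Of these genes, Slc4a5, F5 and Tmem72 were also below all other libraries in 9 months replicate 1. Enpp2, which is expressed in oligodendrocytes too, stood there at 307 CPM and had a mean of 533 CPM.

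Among 20 other choroid plexus epithelial genes, 18 were tested over all 25 libraries. None passed for 24 with 2 months (1 at an unadjusted p under 0.05), with a median change of 0.18. For 30 with 2 months Lbp and Msx1 rose and Kcne2 fell. This count of 3 became 9 without 9 months replicate 1 (5 rose and 4 fell), 6 without 30 months replicate 1 and 1 without 30 months replicate 3. The 20 libraries hold 1 library of 30 months, too few for such a count. Lbp, a lipopolysaccharide-binding protein, rose from 5.70 ± 0.84 to 8.04 ± 1.77 CPM (SD, n = 5; log2 change 0.49, adjusted p = 0.00984). In 30 months replicate 1 Lbp was at 6.12 CPM. With the 20 libraries, 19 were tested and 2 rose at 24 months: Calml4, a calmodulin-like protein, by 0.46 (adjusted p = 0.0258) and Slc4a5 by 0.29 (adjusted p = 0.0377), against 21.1% of all genes. The keratin Krt18 was at 1.73 ± 0.42 CPM at 2 months and 2.23 ± 0.42 at 24 months, a change of 0.35 (adjusted p = 0.384).

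Of 16 genes of the klotho and FGF23 pathway 15 were tested, and 1 passed for 24 with 2 months, against 5.23% of all genes. That was Slc20a2, a sodium phosphate transporter, which rose from 66.9 ± 2.43 to 79.6 ± 2.997 CPM (log2 change 0.25, adjusted p = 0.000994). It stood at 79.8 CPM in 30 months replicate 1. In the fit of 20 libraries 3 passed for 24 with 2 months: Slc20a2 and Fgfr1, a receptor that binds FGF23 together with klotho, rose by 0.25 and 0.14, and Bace1 fell by 0.11, against 21.1% of all genes. The count of 1 became 3 without 2 months replicate 1 and 2 without 30 months replicate 1 or 5. For 30 with 2 months 6 rose and 3 fell over all 25 libraries. Adam17, a protease that sheds klotho, fell by 0.61 there and was at 20.7 CPM in replicate 1 against 24.0 ± 0.24 CPM at 2 months.

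Of 15 genes of ion transport for fluid secretion, 2 rose and none fell for 24 with 2 months (the kinase Stk39 by 0.16 and the carbonic anhydrase Car12 by 0.26), and 5 rose and 4 fell for 30 with 2 months. The 24 month count stands beside 5.23% of all genes. It became 0 without 2 months replicate 2, 3, 4 or 5 or 24 months replicate 3, 1 without any other library of 24 months and 4 without 30 months replicate 1. In the 20 libraries 3 rose and 2 fell, against 21.1% of all genes. The anion exchanger Slc4a2, with 58.3% GC, rose by 0.22 at 30 months, and in replicate 1 it was at 37.0 CPM against 37.4 ± 1.39 at 2 months. The bicarbonate transporter Slc4a7, with 41.6% GC, fell by 1.03 at 30 months, and in replicate 1 it was at 39.8 CPM against 45.7 ± 0.41 at 2 months and 38.4 ± 1.09 at 24 months. With the 20 libraries it fell by 0.25 at 24 months (adjusted p = 0.000274).

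Of 10 genes of thyroid hormone and retinol transport, 1 rose and 1 fell for 24 with 2 months (the retinol receptor Stra6 by 0.98 and, downward, the thyroxine transporter Slco1c1, with a change of -0.26), and 3 rose and 3 fell for 30 with 2 months. Leaving out 1 library gave 1 to 4 in place of these 2 at 24 months: 4 without 30 months replicate 1, and 1 without 2 months replicate 2, 4 or 5, 9 months replicate 1 or 2, 15 months replicate 2, 3 or 5, or 24 months replicate 1, 3 or 5. In the 20 libraries 3 rose and 4 fell at 24 months, against 21.1% of all genes. The thyroid hormone receptors Thra and Thrb went in opposite directions at 30 months, by 0.49 and -0.56, at 59.8% and 44.1% GC. In 30 months replicate 1 Thra was at 511 CPM against 468 ± 10.7 at 2 months, and Thrb at 68.9 against 73.9 ± 3.01. Dio2, the enzyme that activates thyroxine, was at 80.5 ± 10.7 CPM at 2 months, 57.0 ± 7.30 at 24 and 30.4 ± 16.0 at 30 months. Its GC content was 43.4%, and in 30 months replicate 1 it was at 58.3 CPM, near the mean of 24 months. Over all 25 libraries Dio2 fell by 1.402 at 30 months. With the 20 libraries it fell by 0.49 at 24 months.

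Of 7 genes of prolactin and growth hormone signalling, 1 passed for 24 with 2 months (2 without 2 months replicate 3 or over the 20 libraries), and 3 rose and 3 fell for 30 with 2 months. Cish, a feedback inhibitor of cytokine receptors, fell by 0.42 at 24 months (adjusted p = 0.0105). Socs3, another such inhibitor, rose by 0.69 at 30 months and stood at 4.11 CPM in replicate 1 against 3.13 ± 0.41 CPM at 2 months. The receptor kinase Jak2 fell by 0.93 at 30 months and was at 66.1 CPM in replicate 1 against 68.9 ± 2.59 CPM at 2 months.

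Of 6 genes of folate transport and use none passed for 24 with 2 months, where 0 had an unadjusted p under 0.05. For 30 with 2 months 2 rose and 1 fell. The folate carrier Slc19a1 rose by 0.31, and in replicate 1 it was at 17.1 CPM against 16.6 ± 0.57 CPM at 2 months. In each of the 6 lists the share called over all 25 libraries is read against 5.23% of all genes at 24 months and 58% at 30 months.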

How the data were processed

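Total RNA of 25 mouse brain samples was sequenced (TruSeq RNA kit, per the labels' protocols). Per the submitters' processing notes, the authors used CASAVA 1.7, STAR 2.4.1d, featureCounts 1.4.6-p4 and the GRCm38 build. The deposited values are raw counts per Ensembl gene. The annotation release and strand setting are not given in the sources used here. Deposited RPKM values were not used here. Of 47729 identifiers, 47310 matched GENCODE M21 (GRCm38), and 419 did not.

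Counts were fitted in edgeR 4.0.16 (R 4.3.3) with filterByExpr, TMM and robust quasi-likelihood dispersions, a mean per age and all 25 libraries. P-values are two-sided and adjusted over the 17799 genes tested. Standard errors come from the F statistic. The scripts were tested on simulated data. Between replicates the chi-square per degree of freedom was 1.55 to 6.97 up to 24 months and 4.97 to 146 at 30 months. Replicate numbers are accession order, and the labels name no batch.

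The members and lists were chosen with earlier results of these data known. From each of 6 lists the 3 genes with the smallest p in the F test over ages are named, and others only where a small count is spelled out. Some genes this rule picks are not reported here. Alternatives were DESeq2 1.42.0, limma 3.58.1 (voom), 2 other scalings, 2 other filters, libraries left out, a GC offset and liver and choroid plexus covariates. Relations used log2(CPM + 0.5).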

Additional observations from a re-analysis of the deposited data

Results flagged for a closer look

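Among 50 groups of 5 libraries (10 genes at 5 ages), 9 held 1 library that stood far from the other 4. The cut-off flags about 1 in 20 independent groups by chance. The 50 groups share libraries and are not independent, so the 9 are not read against that share. Of the 9 flags, 4 were low in 9 months replicate 1, a library already set apart: Ttr at 17.9 CPM against 454 to 494 in the rest of its age, Folr1 at 0.509 against 4.36 to 4.95, Kl at 8.29 against 27.3 to 30.8, and Aqp1 at 1.60 against 4.74 to 5.497. Prlr stood out in 30 months replicate 1, at 18 CPM against 4.13 to 6.36 in the others.

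The remaining 4 lay in other libraries. Sostdc1 was at 2.78 CPM in 2 months replicate 1 against 3.82 to 4.01, and at 6.29 CPM in 15 months replicate 3 against 4.71 to 4.94. Aqp1 was at 7.76 CPM in 2 months replicate 4 against 5.31 to 5.81. That library had the highest summed leptomeninges and stroma markers of its age (242 CPM against 136 to 189). The same held for markers of ependyma (28.3 CPM), red blood cells (69.7 CPM) and pituitary (13.3 CPM). The part of these tissues in the Aqp1 value was not tested. Trpv4 was at 5.37 CPM in 24 months replicate 1 against 3.53 to 3.88.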

How the results depend on the processing

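DESeq2, limma-voom, 2 other scalings and 2 other filters left the counts of the 10 genes called for each pair of ages as they were. For any age total counts gave 4 and no filter 2 in place of 3. For the linear trend DESeq2, limma-voom and total counts each called 2 in place of 1. With the 20 libraries 1, 1 and 2 passed for 9, 15 and 24 with 2 months. Adding the liver covariate there (added after seeing the data) gave 1, 0 and 1, and the choroid plexus covariate, also added then, gave 2, 2 and 1. These fits, and the one without only the 4 GC-leaning libraries, hold 1 library of 30 months. That is too few for a count of genes that pass at that age. Over all 25 libraries the choroid plexus covariate gave 1 for 15 with 2 months, 8 for 30 with 2, 6 for 30 with 24, 9 for any age and 5 for the trend, where 10252, 9359, 11747 and 8620 of all 17799 genes passed in the last 4 of these. The GC offset gave 1 for 30 with 24 months, 1 for any age and 2 for the trend, where 7340, 10267 and 6592 of all genes passed. Without 9 months replicate 1 (also added after seeing the data) the offset gave 5 for 30 with 2 months, 1 for 30 with 24 and 3 for the trend. Of all 18098 genes tested there, 8279, 7464 and 6693 passed in turn. The liver covariate gave 1 for 30 with 24 months and 2 for the trend, where 8371 and 9303 of all genes passed. Leaving out 1 library at a time gave 0 to 1 for 24 with 2 months, 2 to 5 for 30 with 2, 1 to 2 for 30 with 24, 1 to 5 for any age and 0 to 3 for the trend, and 0 for 9 and 15 with 2 months. Over all genes the first 5 of these were 546 to 1815, 9259 to 11607, 8617 to 11310, 11416 to 13236 and 6522 to 9023. The count of the 10 genes changed by over 1.5 times without 9 months replicate 1 (24 with 2, 30 with 2, any age and trend), 2 months replicate 4 (trend), 30 months replicate 2 (trend) and 30 months replicate 5 (30 with 24, any age and trend). The cause of these changes was not tested, beyond the libraries named.

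The direction of some changes turned. Kl at 9 months was 0.16 with the 20 libraries, 0.18 with the choroid plexus covariate, 0.16 and 0.19 with the liver and choroid plexus covariates in the 20 libraries, 0.15 with the GC offset without 9 months replicate 1, and -0.15 to 0.16 when 1 library was left out. With the choroid plexus covariate Kl at 24 months was -0.027 (25 libraries) and -0.037 (20 libraries), Kl at 30 months -0.050 (20), Ttr at 24 months -0.062 (25), and Folr1 at 24 months -0.11 (25) and -0.0097 (20). Aqp1 at 30 months was -0.22 without the 4 libraries and with the 20, and -0.20 and -0.25 with the liver and choroid plexus covariates there. Pearson's r of Kl with Prlr was -0.143 with 24 libraries. No paired analysis was possible because the replicate numbers follow the order of accessions and link no animals across ages.

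In 9 months replicate 1 the 10 genes rest on 14 (Folr1) to 493 (Ttr) counts, which limits their precision there. At 30 months a single library lies outside the GC shift, which limits every comparison with that age.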

Other observations

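Some listed genes that were no members moved early, by values seen in the 20 libraries and picked after they were seen. Stra6, the receptor that takes up retinol from its binding protein, rose by 0.67 (log2, adjusted p = 0.00641) at 9 months, 0.48 (adjusted p = 0.0391) at 15 months and 0.98 (adjusted p = 4.05e-05) at 24 months against 2 months, all from edgeR. Dio3, the enzyme that inactivates thyroid hormone, rose by 0.63 at 9 months (adjusted p = 0.00245), and the vitamin D receptor Vdr rose by 0.64 at 15 months (adjusted p = 0.0283). Car12, a membrane carbonic anhydrase, rose by 0.24 at 9 months (adjusted p = 0.00264) and by 0.30 at 15 months (adjusted p = 0.000131).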
